A study of Mus musculus with 11 samples.

Results

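The mouse stroma of vehicle-treated A375 xenografts was described from the 3 arrays labelled Vehicle, with no reference to any drug treatment. A gene was taken as present in the stroma when a probe carrying its symbol had a detection p under 0.05 on all 3 arrays. The detection p is the share of background signal, as judged from the negative control beads, that is at least as bright as the probe. It is not the chance that a detected gene is absent. Of 19057 genes named on the array, 5720 passed (30.0%), and they were ranked by the mean signal of their brightest such probe. Close to the threshold, Slc43a1, Dipk2a and Zmym5 passed with a highest detection p of 0.04915 over the 3 arrays, and Slc16a6, Cgrrf1 and Pinlyp did not pass, with 0.05021.

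A375 cells come from a human melanoma and carry mutant BRAF, and their xenograft is a tumor in which the malignant cells are human and the supporting cells are mouse. Cells were placed under the skin of the flank of CD1 athymic female mice aged 6 weeks, tumors reached 150 to 200 mm3 in about 20 days by the sample labels, and the vehicle, methylcellulose (1% w/v), was then given for 12 days. These mice lack a thymus and with it most mature T cells, but they keep macrophages, neutrophils, natural killer cells and B cells. RNA was extracted from whole frozen tumors, so human and mouse transcripts were labelled together, and how much human RNA bound to the mouse probes was not tested. The series holds 8 further arrays of tumors treated with PLX4720, bevacizumab or both, which were not used for the values here.

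Tumor stroma is built by a small set of host cells with separate tasks. Fibroblasts lay down collagen and other extracellular matrix (ECM), and when activated they contract and express smooth muscle actin. Endothelial cells line the vessels, pericytes wrap them, and macrophages that enter the tumor clear debris, present antigen and release proteases, chemokines and growth factors. In many transplanted tumors macrophages and cancer-associated fibroblasts (CAFs) are the main host cells.

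Between 10115 and 11322 of 45281 probes were detected per array. The background, taken as the median signal of probes with a detection p over 0.5, was 97.1, 111 and 100.3 units on replicates 1, 2 and 3, and the median member gave 299.5, 330.3 and 251. Replicate 3 was thus the dimmest array at member level. Signals below are in the arbitrary units of the scanner, in the order of replicates 1, 2 and 3, while differences between tumors are given after background correction and quantile normalization, as the log2 signal of a tumor minus the gene's mean over the 3 tumors. On that scale the arrays correlated at r = 0.964 to 0.969 across the 5720 genes, which are not independent replicates, and the median SD of a gene was 0.24. With 3 tumors and no second group, no test was made, and the number of arrays limits every value. In whole-tumor RNA, fewer cells of a type and less RNA per cell cannot be told apart.

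The top of the ranking was held by genes that every growing cell uses. Rps12 and Rps14 (proteins of the small ribosomal subunit) ranked 1 and 2 with 71139, 72554 and 70469 (Rps12) and 70017, 71869 and 68353 (Rps14) units. Ybx1 (an RNA-binding protein) gave 71085, 71690.4 and 64785 units. The next places went to Npm1 (nucleophosmin), the ubiquitin pseudogene Ubb-ps, Rplp1 (a large-subunit ribosomal protein), Tuba1b (alpha tubulin), Eef1g (a translation elongation factor), Ppia (cyclophilin A) and Actb (beta actin). The highest signals on the arrays were 72582, 73157 and 71859, so the first of these probes lay close to the top of the measured range, where the order of genes carries little information. Ranks 11 to 20 were Myl6, Rps2, Rpl26, Sh3kbp1, Hnrnpm, Atp5g3, Rps19, H2az1, H2ac19 and Ost4. A rank mixes how abundant a transcript is with how well its probe binds, and many of these sequences are closely shared with human. Where ranks or signals of different genes are set side by side here, this is a description of probe signal and not of transcript amount.

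Genes typical of the stroma appeared soon below. Lyz1, a lysozyme gene, had rank 24 with 36535, 23622 and 18713 units, on the only 1 of its 3 probes detected on all arrays. Its close copy Lyz2, the lysozyme of phagocytes, had rank 96 with 12544, 8915 and 6768. These neighbouring genes share much sequence, so their signals may be mixed. Ctsb (cathepsin B, a lysosomal protease) had rank 39 with 22896, 15499 and 13760.1 units. Laptm5, a lysosomal membrane protein of blood cells, followed at rank 70 with 14632, 14075 and 7539.6 and Bgn (biglycan, a small matrix proteoglycan) at rank 73 with 12542, 13466 and 9419. Replicate 1 was the highest for both lysozymes and for Ctsb, and the 3 tumors lay closer together for Bgn, with a log2 range of 0.15.

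**Figure D1:**
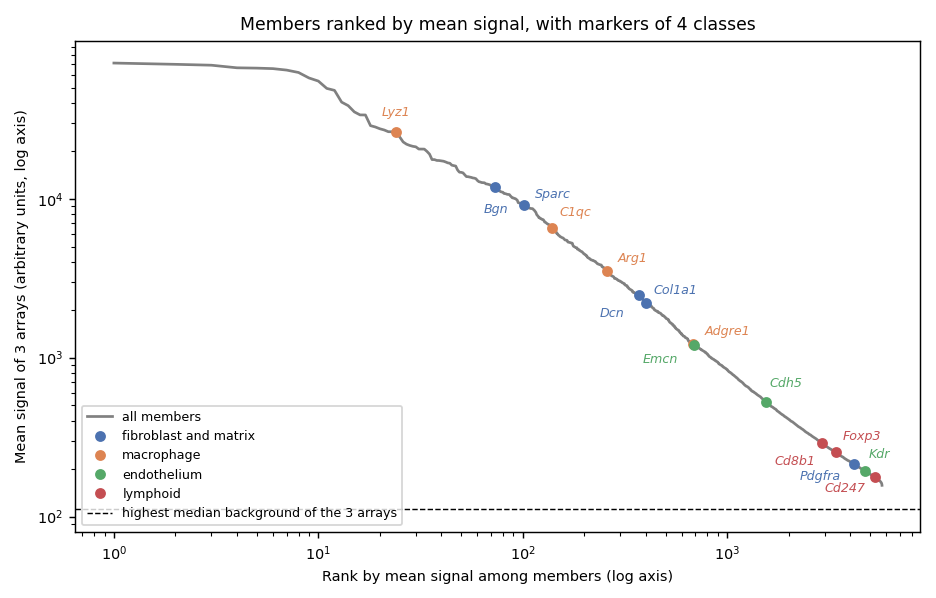
Mean signal of the 3 Vehicle arrays (arbitrary units, log axis) against rank for the 5720 genes detected on all 3, with genes of 4 classes marked. Lyz1, whose signal may be mixed with that of Lyz2, stands at rank 24. Bgn, Sparc and C1qc also lie among the 572 members of largest signal. The endothelial Cdh5 has rank 1552, and the T cell genes Cd8b1, Foxp3 and Cd247 lie at ranks 2906, 3392 and 5311.

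Lists of marker and pathway genes were then read against the share of all named genes (30.0%). Together the 44 lists held 660 genes on the array, of which 327 were members (49.5%), and 33 lists had a share above that of all named genes. The shares ranged widely, with macrophage markers at 23 of 26 and fibroblast markers at 15 of 17, against 3 of 17 T cell markers and 1 of 16 natural killer cell markers. A gene below the threshold may still be expressed. Tbp, Tfrc and Sdha, which nearly all cells use, were each detected on 0 of the 3 arrays, and so was Ptprc (CD45), the common leukocyte antigen, with 142, 159 and 128 units.

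**Figure D2:**
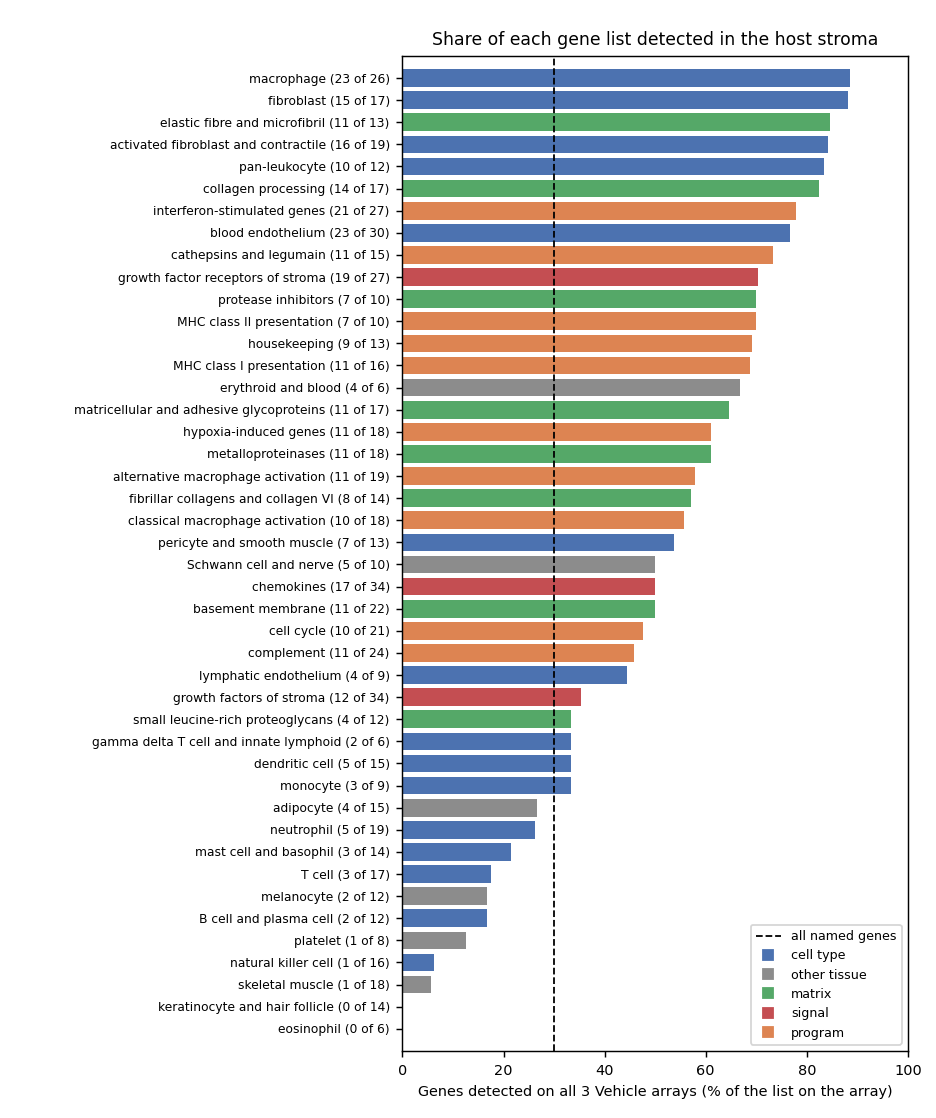
Share of each of 44 gene lists (in %, with the number of members of the genes on the array) that was detected on all 3 Vehicle arrays, colored by the kind of list. The dashed line marks the share of all named genes, 30.0%, and the macrophage (23 of 26), fibroblast (15 of 17) and collagen processing (14 of 17) lists lie far above it while the T cell, natural killer cell, B cell, keratinocyte and muscle lists lie below.

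All 4 defining markers of fibroblasts were members. Dcn (decorin, a collagen-binding proteoglycan) gave 2230.2, 2067 and 3113 units and Col1a1 (the main chain of type I collagen) gave 1751, 2449 and 2441. Thy1, a surface glycoprotein of fibroblasts, gave 1021, 1295 and 1129 units. Pdgfra, the receptor for platelet-derived growth factor on fibroblasts, was much nearer to background at 208, 218 and 214. Serpinf1 (pigment epithelium-derived factor, an inhibitor of vessel growth) and Fbln2 (fibulin 2, a matrix protein) were the brightest other members of the list, with 3595, 4244 and 2898 (Serpinf1) and 1943, 2397 and 2028 (Fbln2) units. Of the 15 fibroblast genes detected, 10 were highest in replicate 3 after normalization, where 32.9% of all members had their highest value, and their median deviation was -0.04, 0.00 and 0.28 in replicates 1, 2 and 3. The value of replicate 3 was 0.001 with median scaling and no background correction, where the median over all members was -0.17. Over second probes it was 0.53.

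Markers of activated, contractile fibroblasts were detected for 16 of 19 genes. Of these, 8 were highest in replicate 2 (all members: 34.0%) and 8 in replicate 3 (all members: 32.9%), and 10 were lowest in replicate 1 (all members: 34.7%). Acta2, the smooth muscle actin that marks CAFs and is also made by the muscle cells of vessels, gave 4604, 6503 and 3758 units. A second Acta2 probe was dimmer, with 719.6, 1002 and 649 units, and was also highest in replicate 2. Sparc (osteonectin, which binds collagen) gave 8706, 11884 and 6844, Ccn2 (connective tissue growth factor) gave 3546, 5359 and 2677 and Thbs2 (thrombospondin 2, an inhibitor of vessel growth) gave 1844, 2933 and 1604 units. Each of these genes was highest in replicate 2 on these probes, whereas the second probe of Sparc, with 5497, 4439 and 5075 units, was highest in replicate 1 on the raw scale and in replicate 3 after normalization. Fap (fibroblast activation protein, a surface protease) was low at 198, 223 and 188, and Postn (periostin) was detected on 0 arrays, at 131, 126 and 108 units.

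Pericyte markers were less complete, with 7 of 13 detected. Cspg4 (NG2) gave 316, 425 and 225 units and Mcam (CD146) gave 519.7, 685 and 349.8. Pdgfrb, the growth factor receptor that pericytes need to settle on vessels, was among the last ranks at 151, 186 and 153, and Rgs5 was detected on 0 arrays. Des (desmin, an intermediate filament of muscle and pericytes) gave 206, 382 and 149.6 units and Anpep (aminopeptidase N) gave 189, 329 and 189, both highest in replicate 2, the tumor that also held muscle transcripts, as described below. Their source was not tested.

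Blood vessels were represented by 23 of 30 endothelial genes, 0 of which lay among the 572 members of largest signal. The junction proteins Pecam1 (CD31) and Cdh5 (VE-cadherin) gave 416, 486 and 427 (Pecam1) and 496, 541 and 546 (Cdh5) units, and after normalization both were highest in replicate 3, by log2 ranges of 0.47 and 0.61. A second Pecam1 probe, with 278, 286 and 227 units, was highest in replicate 1 after normalization, so the direction depends on the probe. Kdr (VEGF receptor 2, the main signaling receptor for VEGF-A) was low at 188, 231 and 161 while Flt1 (VEGF receptor 1), chosen after its values were seen, gave 749.9, 856 and 511. Esam, an endothelial adhesion molecule, gave 1313, 1629 and 995 units, Emcn (endomucin) gave 1356, 1398 and 858 and Egfl7, a secreted endothelial factor, gave 1209, 1261 and 1126. Plvap, which forms the diaphragms of endothelial fenestrae, gave 1300.4, 1330.2 and 579 units and was lowest in replicate 3. Vwf (von Willebrand factor), picked after its values were seen, was also lowest there with 763, 759.6 and 315. Nrp1 (neuropilin 1, a co-receptor for VEGF) gave 901, 696 and 538 units.

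Lymphatic endothelium was represented more thinly. Lyve1, the hyaluronan receptor of lymphatic vessels and of some macrophages, gave 352, 234 and 627 units, with replicate 3 well above the others and a log2 range of 2.67, one of the widest of all members. Pdpn (podoplanin), found on lymphatic vessels and on CAFs, gave 949, 1015 and 1565, and Flt4 (VEGF receptor 3) lay at the threshold with 148, 202 and 160.3 units. Prox1, the transcription factor that defines lymphatic identity, was detected on 0 arrays at 108, 97.9 and 119. Among list genes that did not pass, Ccl21a, a chemokine of lymphatic vessels, gave 190.1, 123 and 858 units, Reln (reelin) gave 135, 127 and 305 and Mmrn1 (multimerin 1) gave 107, 124 and 241, each with its highest signal in replicate 3. These 3 genes were singled out after their values were seen.

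**Figure D3:**
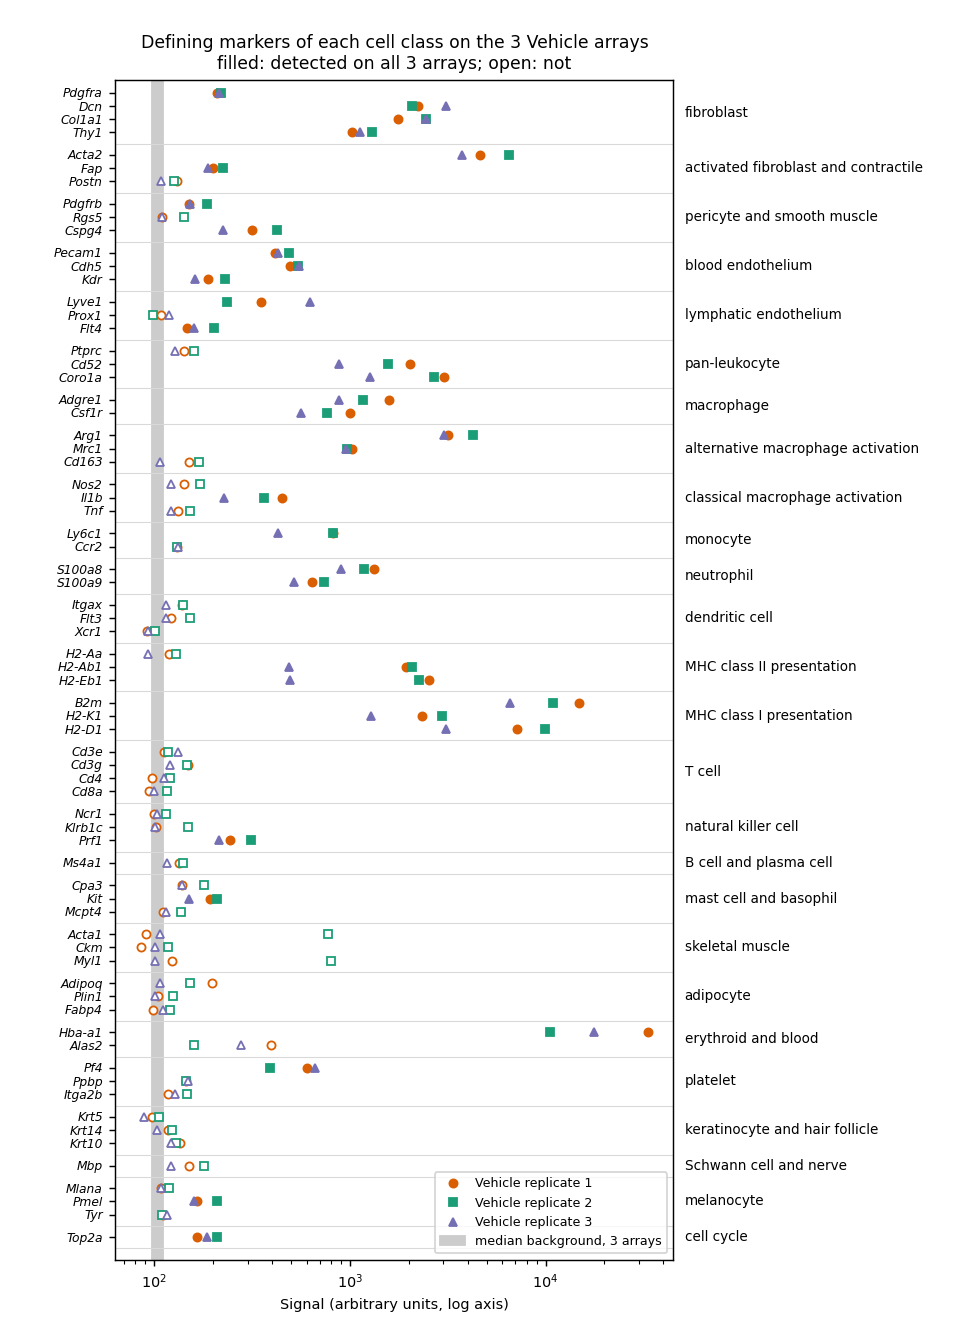
Signal (arbitrary units, log axis) of the defining markers of each cell class in the 3 Vehicle tumors, filled where the gene was detected on all 3 arrays and open where it was not, with the range of the 3 background medians shaded. Fibroblast, macrophage and endothelial markers lie to the right of the background, most lymphocyte, dendritic cell, keratinocyte and melanocyte markers lie in or beside it, and Acta1 and Myl1 are far above it in replicate 2 alone.

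Macrophage markers had one of the fullest lists. Of 26 on the array, 23 were members and 10 lay among the 572 of largest signal over all members. Adgre1 (F4/80, the usual surface marker of mouse macrophages) gave 1585, 1159.9 and 884 units and Csf1r, the receptor for the growth factor on which macrophages depend, gave 998, 767 and 561. Both were highest in replicate 1. Apoe (apolipoprotein E, a lipid carrier made by macrophages) gave 11769.6, 8692 and 4505 units, and C1qc, C1qb and C1qa, the chains of the first component of complement, gave 8176, 7528 and 3878 (C1qc), 7243, 4810 and 2707 (C1qb) and 2701, 1912 and 1185 (C1qa). Cd14, a co-receptor for bacterial lipopolysaccharide, gave 1204, 1307 and 823 units. Of the 23 members, 20 were highest in replicate 1, where 33.1% of all members had their highest value, and the median deviation was 0.40, -0.09 and -0.18 in replicates 1, 2 and 3. Not every marker was detected, since Itgam (CD11b) gave 112, 135 and 106 units and Fcer1g gave 103, 129 and 102, both on 0 arrays.

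Genes of alternative (M2-like) activation were present at 11 of 19 and genes of classical (M1-like) activation at 10 of 18. Arg1 (arginase 1, which consumes arginine) was the brightest of the first set at 3186, 4246 and 3031 units and Mrc1 (CD206, the mannose receptor) gave 1029, 966 and 958. Mrc1 was nearly level in raw signal, and after normalization replicate 3 was its highest, by a log2 range of 0.54. Tgm2 (transglutaminase 2) and F13a1 (coagulation factor XIII) gave 2651, 2410.4 and 1701 (Tgm2) and 602, 1335 and 837 (F13a1) units, the second highest in replicate 2. Cd163, a scavenger receptor, was detected on 1 array with 150.4, 169 and 107, and Il10 on 0 with 103, 116 and 88.1.

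Of the classical effectors Nos2 and Tnf were below the threshold. Nos2 (inducible nitric oxide synthase) gave 142, 171 and 122 units and Tnf gave 132, 153 and 122, both on 0 arrays, while Il18 and Ccr7 were each detected on 1. Il1b (interleukin 1 beta) was a member at 449.7, 362 and 228 units, and so were the pattern receptor Tlr2 at 612, 604 and 384 and the costimulatory receptor Cd40 at 252, 249.6 and 209.8. The chemokine Ccl5, which attracts lymphocytes and monocytes, gave 486, 409.6 and 194 units. Of the 10 members of this list, 8 were highest in replicate 1 and 8 were lowest in replicate 3 (all members: 33.1% and 34.6%). Il6ra (the interleukin 6 receptor) gave 185, 276 and 186 units and Irf2 (an interferon regulatory factor) gave 936, 879 and 524.

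Lists of other myeloid cells lay near the share of all named genes (30.0%), with 3 of 9 monocyte, 5 of 15 dendritic cell and 5 of 19 neutrophil genes, so these counts are no result about the cells. The monocyte members were Ly6c1 at 822, 824 and 427 units, Plac8 at 1528, 1318 and 745 and Ifitm3, while Ccr2, the receptor that brings monocytes out of the marrow, was detected on 0 arrays at 131, 129.8 and 132. Ly6c1 is also made by endothelial cells and shares much sequence with Ly6c2. S100a8 and S100a9, the calcium-binding pair that fills neutrophils, gave 1329, 1175 and 904 (S100a8) and 638, 736 and 519.9 (S100a9) units. The other neutrophil members were Clec4d at 402, 365 and 274, Csf3r at 315, 352 and 218 and Mmp9 at 216, 300.3 and 327. The defining markers of dendritic cells, Itgax (CD11c), Flt3 and Xcr1, were detected on 0 arrays each, and the 5 members of that list, Irf8, Bst2, Irf7, Cd83 and Fscn1, are also used by other cells. Of 14 mast cell genes Hdc, Kit and Hpgds (a prostaglandin synthase) were members (21.4%, all named genes: 30.0%), the last at 338, 317 and 224 units. The probes of Cpa3 and Mcpt4 described here were detected on 0 arrays. All 6 eosinophil genes were also detected on 0 arrays, as were 57.1% of all named genes.

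Few lymphocyte genes were detected, and the members among them were mostly of low signal. Cd3e gave 112, 118 and 133 units, Cd4 gave 96.7, 119.5 and 113 and Cd8a gave 93.7, 116 and 99.1, each on 0 arrays, and Cd3g was detected on 1. The 3 members of the T cell list were Cd8b1 with 321, 281 and 264 units, Foxp3 with 251, 295 and 214 and Cd247 with 166, 192 and 171. Only 1 of 3 Cd8b1 probes, 2 of 4 Foxp3 probes and 1 of 3 Cd247 probes were detected on all 3 arrays. CD8 beta chains normally pair with CD8 alpha chains, whose probe was at background. Of 16 natural killer cell genes, Prf1 (perforin) alone was a member, at 243, 312 and 214 units on 1 of its 2 probes. Ncr1 and Klrb1c were detected on 0 arrays, while Nkg7, chosen after its values were seen, gave 247, 333 and 136 units and was detected on 2. Xbp1 at 1400.4, 1596 and 957 and Mzb1 at 147, 194 and 145 were the members of 12 B cell and plasma cell genes, and Xbp1 serves secretory cells of many kinds. Ms4a1 (CD20) was detected on 0 arrays, while Cd79a, like Cd68 of macrophages and Ly6g of neutrophils, was not carried by a probe with a single symbol. Il7r and Rora, which innate lymphoid cells express among others, were members at 163, 249.9 and 184 (Il7r) and 156, 203 and 159 (Rora) units.

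Tissues next to the tumor were followed as well. Keratinocyte genes were absent from the members at 0 of 14 (all named genes: 30.0%), and Krt5, Krt14 and Krt10 were detected on 0 arrays. Of 18 skeletal muscle genes only Ttn (titin) was a member, at 184, 244 and 180.2 units. Acta1 (muscle actin) gave 90.6, 768 and 107 units and Myl1 (a myosin light chain) gave 123, 804 and 101, above the threshold in replicate 2 alone, while Ckm was detected on 0 arrays, and the summed signal of the 18 probes was 2155, 4679 and 2119. Of 15 adipocyte genes 4 were members, near the share of all named genes (30.0%), namely Pnpla2, Scd1, Lpl and Lep. Adipoq, Plin1 and Fabp4 did not pass. Pmp22, Cnp, Ncam1, Mag and Ngfr were the members of 10 nerve genes, with Mbp detected on 1 array. Pmel at 165, 210.1 and 159.6 and Slc45a2 at 162, 248 and 160.2 were the members of 12 melanocyte genes, both in the last ranks, and Mlana and Tyr were detected on 0 arrays.

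Blood transcripts varied widely between the tumors. Hba-a1 (alpha globin) gave 33431, 10543 and 17641 units, and the beta globins Hbb-bs and Hbb-bt, named after their values were seen, gave 37334, 8904 and 18661 (Hbb-bs) and 29939, 7635 and 14339.9 (Hbb-bt). Replicate 1 was highest and replicate 2 lowest for these 3 globins, which share much sequence. Hbb-b2, another adult beta globin, gave 1027, 391 and 387 units. The other members of the blood list differed in order, with Slc4a1 (the anion exchanger of red cells) at 205, 301 and 176 units and Bpgm (bisphosphoglycerate mutase) at 226, 312 and 215, both highest in replicate 2. Hbb-b1 was not carried by a probe with a single symbol. Alas2, the first enzyme of heme synthesis in red cell precursors, had the order of the 3 globins at 394, 160.3 and 278 and was detected on 2 arrays. Pf4 (platelet factor 4, made by megakaryocytes and by some macrophages) gave 603, 391 and 659.8 units, while Ppbp and Itga2b did not pass. The part of blood content in the higher macrophage signals of replicate 1 was not tested.

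The matrix of these tumors was covered by collagens of several classes. Of 14 fibrillar and type VI collagen genes, 8 were members. Col5a1, a chain of the collagen that starts fibrils, gave 2588, 3029 and 2529 units, Col6a1 (a chain of the beaded filaments) gave 1651, 2016 and 1335 and Col3a1, a fibrillar collagen of young and elastic tissue, gave 1189, 887 and 1242. Col1a2, named after its values were seen, gave 239, 317 and 287, and the genes that did not pass include cartilage collagens such as Col2a1 and Col11a1. After normalization 6 of the 8 members were highest in replicate 3 (all members: 32.9%), while on the raw scale replicate 2 was the highest for every member but Col3a1, so the order depends on the normalization.

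Basement membrane genes were members at 11 of 22. Col4a1 and Col4a2, the chains of the network under every endothelium, gave 2984, 3425 and 2982 (Col4a1) and 2204, 2124 and 1838 (Col4a2) units. Hspg2 (perlecan, a heparan sulfate proteoglycan) gave 1464, 1578 and 1503 and Lamb2 (laminin beta 2) gave 1972, 1363 and 1977. After normalization 10 of the 11 genes were highest in replicate 3 (all members: 32.9%), with a median deviation of -0.22, -0.11 and 0.32 in replicates 1, 2 and 3. On the raw scale, however, Hspg2 was nearly level and Col4a2 was lowest in replicate 3. Without background correction and with median scaling the deviation in replicate 3 was 0.03, where the median over all members was -0.17, and over second probes it was 0.04.

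Among the small proteoglycans Bgn, Dcn, Prelp and Lum were members, 4 of 12, near the share of all named genes (30.0%). The other 8 were detected on 0 arrays (all named genes: 57.1%), so these counts are no result about the class. Prelp, which anchors basement membranes, gave 625, 860.1 and 501 units and Lum (lumican, a regulator of fibril spacing) gave 518, 447 and 572. The adhesive glycoprotein Fn1 (fibronectin) gave 2209, 2133 and 2752 units, Mfge8 (a bridge between dying cells and phagocytes) gave 2101, 2811 and 1581 and Tgfbi (a matrix protein induced by TGF-beta) gave 3471, 3537 and 968. Tgfbi was lowest in replicate 3 by a log2 range of 1.54, whereas Fn1 was highest there. The microfibril genes Mfap2 and Mfap5 gave 7508, 7346 and 5265 (Mfap2) and 1403, 1256 and 1269 (Mfap5), and the crosslinking enzymes Lox and Loxl1 gave 961, 966 and 1445 (Lox) and 2598, 3196 and 1865 (Loxl1) units. Enzymes that prepare collagen were members at 14 of 17, led by the chaperone Serpinh1 (HSP47) at 4208, 3998 and 3683, P4hb (a subunit of prolyl hydroxylase) at 3969, 3975 and 3150.2 and Plod3 (a lysyl hydroxylase) at 1525, 1602 and 948.

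Proteases that open the matrix were detected together with their inhibitors. Mmp14, the membrane-bound metalloproteinase that activates Mmp2, gave 3599, 3561 and 1874 units, Mmp2 (gelatinase A) gave 1761, 1960.4 and 1358 and Mmp13 (a collagenase) gave 3078, 4047 and 2003. Mmp3 (stromelysin 1) gave 699.5, 972 and 1658 and was highest in replicate 3 by a log2 range of 1.83, and Mmp10 (stromelysin 2), chosen after its values were seen, shared that order with 227, 331 and 435 units. The inhibitor Timp1 gave 3063, 2385 and 3988 units, again highest in replicate 3. Of the lysosomal proteases Lgmn (legumain) gave 9238, 9878 and 5459, Ctsh gave 2962, 2054 and 1347 and Ctsa gave 1557, 1896 and 974 units, and Cst3 (cystatin C, which blocks cathepsins) gave 8395, 5739 and 3605. Among the cathepsins 6 of 11 members were highest in replicate 1 (all members: 33.1%) and 6 were lowest in replicate 3 (all members: 34.6%). The median deviation of the 11 metalloproteinase and related members was 0.43 in replicate 3, but 0.016 over second probes. With median scaling and no background correction it was 0.099, where the median over all members was -0.17.

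Chemokines were members at 17 of 34. Ccl8 and Ccl12, both attractants of monocytes, gave 4915, 2428 and 2082 (Ccl8) and 2609, 2843 and 1582 (Ccl12) units. Cxcl14 gave 2061, 1745 and 815 and Cxcl16, a membrane-bound chemokine and scavenger receptor of macrophages, gave 1623, 1551 and 818 units. Cxcl9 and Cxcl10, which interferon induces and which draw activated T cells, gave 670.4, 739 and 169 (Cxcl9) and 242, 229 and 143 (Cxcl10). Cxcl13, a B cell attractant, was 1 of the 3 most variable members, at 188, 888 and 184 units, high in replicate 2 alone. The neutrophil attractants Cxcl2 and Cxcl3 were detected on 0 arrays and Cxcl1 on 1.

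Growth factors of the stroma were members at 12 of 34, near the share of all named genes (30.0%), and their receptors at 19 of 27. Pdgfa gave 828, 1109 and 708 units, Tgfb1 gave 699.9, 761 and 627 and Angpt2 (angiopoietin 2, which destabilizes vessels) gave 677, 900.2 and 1016. Inhba (activin A) gave 397, 689 and 832 units, lowest in replicate 1. Hgf, Fgf2, Fgf7 and Igf2 were detected on 0 arrays, and so was Figf (VEGF-D). Of the receptors Axl, which binds dying cells through Gas6, gave 2258, 2140.3 and 1333 units, and the TGF-beta receptors Tgfbr1 and Tgfbr2 gave 1611, 1166 and 979 (Tgfbr1) and 2089, 1844 and 1458 (Tgfbr2).

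The 3 tumors differed in a minority of genes. The log2 range between them was at least 1 for 432 of the 5720 members (7.55%), and it was 0.45 at the median. The most stable of the detected housekeeping genes were Ppia, Ywhaz and Actb, with ranges of 0.14, 0.20 and 0.24. Eef1a1, a translation elongation factor among the 4 brightest of that list, gave 18078, 19413 and 13572 units. The widest ranges belonged to Hnrnpul1 (an RNA-binding protein) at 4.27 with 218, 2642 and 268 units, Tmem154 at 3.00 with 149, 632 and 171 and Cxcl13 at 2.90. Cxcl9, Lyve1, Atp8b3, Mup2, Ifit3, Dpf1, Isg15, Cwf19l2 and Kcnn3 followed, with ranges from 2.67 to 2.30. Hnrnpul1, Tmem154, Cxcl13, Atp8b3, Dpf1 and Cwf19l2 were highest in replicate 2, and Hnrnpul1 has 5 probes of which 1 was detected on all arrays. For Ifit3 a second detected probe gave 296, 310.2 and 151 units, lowest in replicate 3, where the first, with 147, 394 and 339, was lowest in replicate 1, so its direction depends on the probe. Over all 1403 members with a second detected probe, the same tumor was highest on both probes for 47.3%, and for 54.6% of the 119 among them with a range of at least 1.

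Genes of antigen presentation by MHC class II formed the most uneven list. These proteins display peptides on macrophages, dendritic cells and B cells, and the factor CIITA switches their genes on together through short X and Y boxes in front of each gene. Of 10 genes 7 were members, and all 7 were lowest in replicate 3 (all members: 34.6%) and had a log2 range of at least 1 (all members: 7.55%). Cd74, the invariant chain that guides class II molecules to the endosome, gave 5663, 5821 and 1164 units. H2-Eb1 and H2-Ab1, beta chains of the class II molecules, gave 2541, 2251 and 495 (H2-Eb1) and 1941, 2079.9 and 489.6 (H2-Ab1). Replicates 1 and 2 were close to each other for these 3 genes and replicate 3 stood clearly below both. H2-DMa, H2-DMb1 and H2-DMb2, which load the peptide, gave 1318, 1173 and 504 (H2-DMa), 660.4, 672 and 207 (H2-DMb1) and 671, 605 and 225 (H2-DMb2) units. The protease Ctss (cathepsin S), which trims the invariant chain, gave 1571, 1064 and 549 and is also counted in the macrophage and cathepsin lists.

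The median deviation of the 7 genes was 0.64, 0.57 and -1.20 in replicates 1, 2 and 3. The value of replicate 3 was -0.49 for the dendritic cell list, -0.42 for classical activation, -0.36 for monocytes, -0.23 for the pan-leukocyte list and -0.18 for macrophages. The dendritic cell list shares Bst2 and Irf7 with the interferon-stimulated list, and none of its defining markers was detected. Second probes gave 2019.9, 1949 and 435 units for H2-Ab1, 5465, 5402 and 1313 for Cd74 and 1038, 878 and 295 for H2-DMa, with replicate 3 again the lowest of the 3 tumors. H2-Aa gave 119, 129 and 92.5 units and Ciita gave 144, 131 and 101, each on 0 arrays, so the switch itself could not be followed. H2-Ea, a class II alpha chain outside the list that was added after its values were seen, gave 4645, 4226 and 1024 units. Pan-leukocyte genes had the same lowest tumor in 7 of 10 cases (all members: 34.6%). Coro1a gave 3010, 2698 and 1268, Cd52 gave 2022, 1556 and 883 and Arhgdib gave 1355, 1138 and 818 units. The part of pan-leukocyte genes in the class II difference was not tested.

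The upstream sequence of 2 of these genes is shown, chosen because they are the class II members in the table whose promoters hold both boxes, with the X box letters TAGNAACNG and the Y box letters ATTGG in capitals on either strand. Each sequence is the 150 bases before the start of transcription given by RefSeq on GRCm38.p6, read 5′ to 3′ on the strand of the gene, H2-Eb1 at chr17:34305717-34305866 (+) and H2-DMb1 at chr17:34153041-34153190 (+).
H2-Eb1: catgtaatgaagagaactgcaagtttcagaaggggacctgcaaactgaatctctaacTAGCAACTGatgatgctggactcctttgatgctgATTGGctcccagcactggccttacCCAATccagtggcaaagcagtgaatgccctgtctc
H2-DMb1: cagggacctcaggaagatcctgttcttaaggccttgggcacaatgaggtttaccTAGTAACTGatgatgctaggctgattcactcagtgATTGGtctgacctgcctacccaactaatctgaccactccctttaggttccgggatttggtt
The X box letters began 93 bases before the start in H2-Eb1 and 96 bases before it in H2-DMb1, and the Y box letters followed at 59 and 61 bases, with a further match on the other strand at 35 bases in H2-Eb1. Within the 250 bases before the start, 2.97% of 32851 RefSeq promoters hold these X box letters, 33.8% hold the Y box letters and 1.0% hold both, and the X and Y matches printed here do not overlap. Of the 5 class II members with a RefSeq promoter in the table, 4 had the Y box letters and 2 had the X box letters, while Ctss had neither. The X box letters were also held by 4 of 18 interferon-stimulated members. These genes counted when any of their promoters held the letters, whereas the shares over all promoters count each promoter singly. A match of letters is a description and not a measurement of binding.

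MHC class I genes and interferon-stimulated genes had the same tumor as their lowest. Class I molecules, which nearly every cell carries, were represented by 11 of 16 genes, 10 of them lowest in replicate 3 (all members: 34.6%). B2m (beta 2 microglobulin, the shared light chain) gave 14797, 10961 and 6543 units, H2-D1 gave 7164, 9970.2 and 3111, H2-K1 gave 2331, 2957 and 1283 and H2-T23 gave 2738, 3132 and 1161. Pdia3, a chaperone of peptide loading and of other secreted proteins, was highest in replicate 2 at 12255, 22449.9 and 8941 units. The class I heavy chains share long stretches of sequence, so single members may carry signal from another.

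Interferon-stimulated genes were members at 21 of 27. Of these, 17 were lowest in replicate 3 (all members: 34.6%) and 2 were highest there (all members: 32.9%). A log2 range of at least 1 was seen for 9 of the 21 (all members: 7.55%). Ifit3, 1 of these, was after normalization highest in replicate 3 on its first probe and lowest there on its second. The membrane proteins Ifitm1, Ifitm2 and Ifitm3, which block viral entry, were bright and ranged less, at 13842, 17195 and 9363 (Ifitm1), 5908, 8968 and 4365 (Ifitm2) and 6987, 5483 and 3425 (Ifitm3) units. Ifi27l2a gave 5689, 3628 and 1859 units. Isg15, a ubiquitin-like modifier, gave 671, 633 and 184, and Bst2 (tetherin, which holds budding virus at the cell surface) gave 587, 456 and 184. Igtp, Gbp2 and Irf7, chosen after their values were seen, gave 548, 429 and 176 (Igtp), 969.9, 1094 and 405 (Gbp2) and 319.5, 299.7 and 144 (Irf7) units. On these probes replicate 3 was the lowest tumor for each of the 9 genes whose units are given here. The log2 ranges were 0.57 to 0.64 for the Ifitm genes and 1.17 to 2.31 for the others. A second, much dimmer Ifitm1 probe, with 237.2, 246.5 and 245.6 units, was highest in replicate 3 after normalization, so the direction for Ifitm1 depends on the probe. The median deviation of the 21 genes was 0.31, 0.23 and -0.46.

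Interferons act on such genes through a response element, and the letters GAAANNGAA, a core of it, are shown in capitals on either strand in the 150 bases before the start of Isg15 at chr4:156200819-156200968 (-) and of Igtp at chr11:58199406-58199555 (+), 2 genes that were low in replicate 3.
Isg15: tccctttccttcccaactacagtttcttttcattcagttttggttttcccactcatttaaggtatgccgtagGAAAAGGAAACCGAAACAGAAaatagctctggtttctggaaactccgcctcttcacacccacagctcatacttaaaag
Igtp: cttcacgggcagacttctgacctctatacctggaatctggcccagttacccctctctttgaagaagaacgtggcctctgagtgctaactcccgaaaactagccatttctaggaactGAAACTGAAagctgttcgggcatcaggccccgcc
In Isg15 3 overlapping matches began 78, 72 and 66 bases before the start, and in Igtp 1 match began 34 bases before it. Of 18 interferon-stimulated members with a RefSeq promoter, 10 held these letters in the 250 bases before the start of at least 1 of their promoters. Over all 32851 promoters, each counted singly, the share was 7.13%, so the units differ. Bst2, Gbp2 and Ifit3 were among the 10 genes while Irf7 was not. The list was drawn up as interferon targets, so the count of 10 describes the list and not the tumors.

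Replicate 3 was also the highest tumor for a further group of genes. Vegfa, the growth factor of vessels that low oxygen induces, gave 304, 288 and 574 units, and a second probe gave 176, 194 and 234, highest in the same tumor. Of 11 hypoxia-induced members 8 were highest in replicate 3 (all members: 32.9%), and 6 were lowest in replicate 2 (all members: 30.6%). Their median deviation was -0.25, -0.13 and 0.36. With median scaling and no background correction the last was 0.08, where the median over all members was -0.17. Ndrg1 at 808, 697 and 1077 and Egln3 (an oxygen-sensing prolyl hydroxylase) at 258, 257 and 438 units, chosen after their values were seen, were also highest in replicate 3. Pdk1 (a kinase that turns pyruvate away from the mitochondria), likewise chosen afterwards, was lowest there, with 207, 317 and 153 units and a log2 range of 1.40. The glycolytic genes varied less, with Ldha at 4693, 4205 and 3293, Pgk1 at 1944, 2025 and 1604 and Aldoa at 1412, 1290.3 and 961 units, all within a log2 range of 0.28, and after normalization Pgk1 was highest in replicate 3 while Ldha and Aldoa were highest in replicate 1. Slc2a1 (the glucose transporter GLUT1) gave 1244, 1554 and 1443 units, highest in replicate 2 on the raw scale and in replicate 3 after normalization. Lyve1, Mmp3, Timp1, Dcn and Fn1, brought together after their values were seen, had replicate 3 as their highest tumor in raw signal and after normalization. A second Fn1 probe, however, with 2247, 2017 and 1954 units, was lowest there on the raw scale and highest after normalization.

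**Figure D4:**
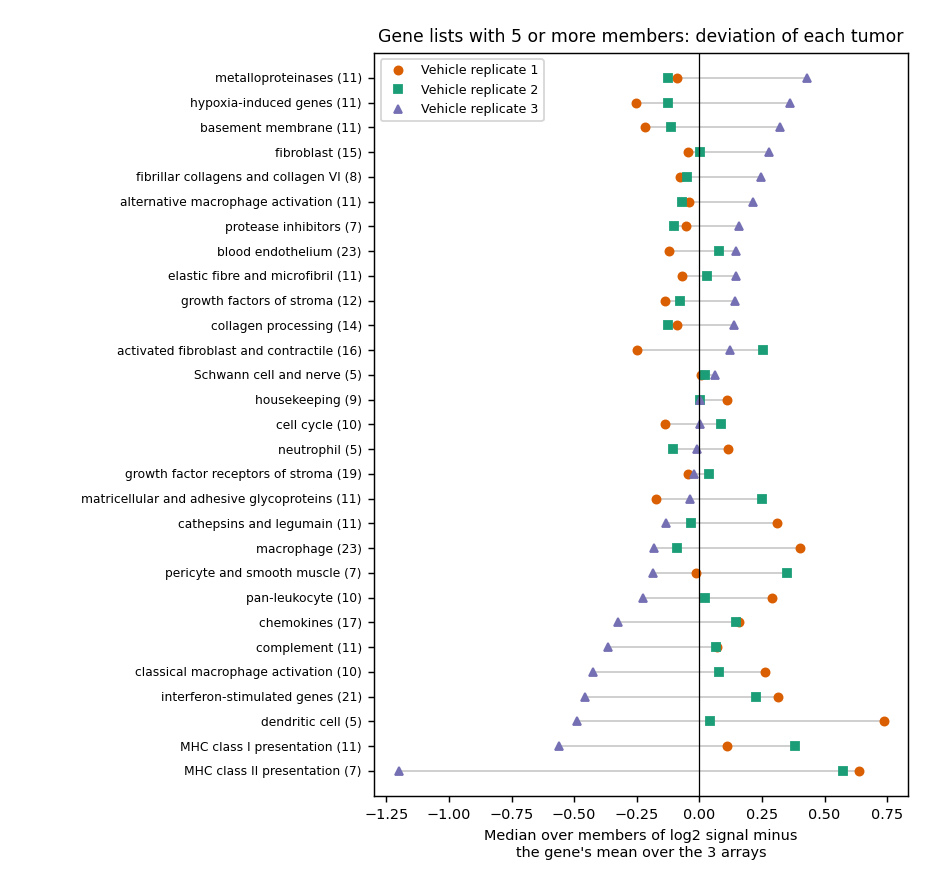
Median deviation of each tumor (log2 signal minus the gene's mean over the 3 tumors) for the lists with 5 or more members, with the number of members in parentheses. MHC class II genes lie at -1.20 in replicate 3, followed by MHC class I, dendritic cell and interferon-stimulated genes. The dendritic cell list shares Bst2 and Irf7 with the interferon-stimulated list. Metalloproteinase, hypoxia-induced, basement membrane and fibroblast genes lie above 0 in that tumor. These values shrink with median scaling, where the median over all members is -0.17.

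**Figure D5:**
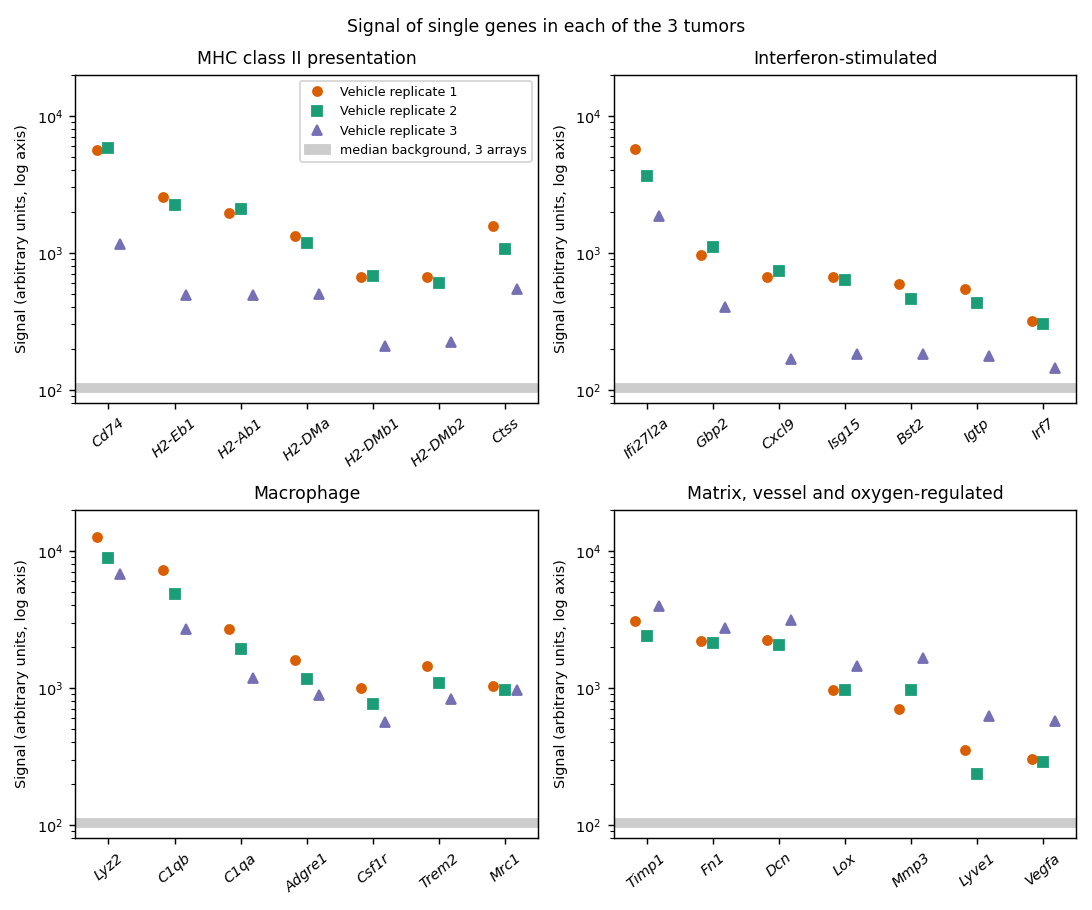
Signal (arbitrary units, log axis) of 7 genes from each of 4 groups in the 3 Vehicle tumors, with the range of the 3 background medians shaded. The class II and interferon-stimulated genes plotted have replicate 3 well below the others. The macrophage genes have replicate 1 on top with Mrc1 nearly level. Timp1, Fn1, Dcn, Lox, Mmp3, Lyve1 and Vegfa, grouped after their values were seen, have replicate 3 on top. Other matrix and vessel genes, such as Sparc, Mmp14, Tgfbi and Plvap, are not plotted and were lowest in replicate 3 in raw signal.

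Cell cycle genes were detected in part, and binding of RNA from the human tumor cells to these probes was not tested. Of 21 genes 10 passed, with Tyms (thymidylate synthase) at 491, 707 and 592 units, Mcm5 and Mcm6 (helicase subunits of DNA replication) at 368, 453 and 293 (Mcm5) and 415, 355 and 303 (Mcm6), and Birc5 (survivin) at 281, 297 and 219.6. Top2a (topoisomerase 2 alpha) was a member at 164, 209.9 and 185, while Pcna, Ccna2, Aurka and Kif11 did not pass and Mki67 and Ccnb1 were not carried by a probe with a single symbol. The median deviation of the 10 genes stayed within -0.14 and 0.09 in the 3 tumors. Complement genes beyond C1q were led by Serping1 (the C1 inhibitor) at 3382, 3461 and 2306 units, and 8 of 11 complement members, the 3 C1q chains among them, were lowest in replicate 3 (all members: 34.6%).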

How the data were processed

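Total RNA of whole frozen tumors was hybridized to MouseWG-6 v2.0 bead arrays, 1 array per tumor, and read with GenomeStudio 2011.01. The authors deposited non-normalized signal intensities, the detection p-value of each probe on each array, and a second table of intensities that they had normalized by cubic spline, on a linear scale. Probes were named through the platform annotation: of 45281 probes, 34885 had 1 symbol, 18 several and 10378 none, and 34807 of the named probes matched a current gene by Entrez number. Groups and replicate numbers came from the sample titles.

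Each gene was represented by the brightest of its probes detected on all 3 Vehicle arrays, or by its brightest probe where it was not a member. Levels and ranks used the deposited intensities. Spread used log2 values computed from the deposited intensities with neqc of limma 3.58.1 (R 4.3.3, offset 16, background estimated through the detection p-values), a step tested on simulated data, where it overstated downward shifts. The labels number the 3 tumors as replicates without tying each to a mouse, and the spread between them holds both tumor and array error. Promoters came from RefSeq (GRCm38.p6), and motifs were searched on both strands of the 250 bases before the start.

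Members and gene lists were chosen with earlier results of these data known. Named were the 20 members of largest signal, the 12 of largest and the 3 housekeeping genes of smallest log2 range, the defining markers, the 4 brightest members of each list, every member of a list with 3 or fewer, and genes the study discusses in stroma; any other gene was chosen after its values were seen, and a few items under the rule are not reported here. Detection thresholds, probe choice, normalization and each tumor left out were tried as alternatives. The 8 arrays of treated tumors entered only 1 alternative, the joint normalization, and no comparison between treatments was made.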

Additional observations from a re-analysis of the deposited data

How the results depend on the processing

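Membership depended on the detection rule, with 3715 genes at a detection p under 0.01 and 2733 where every probe of a gene had to be detected, against 5720; leaving out 1 tumor gave 5934 to 6313. The lists above the share of all named genes numbered 33 to 35 under every rule run. Of the 572 members of largest signal, 521 to 568 stayed among the 572 under the other normalizations, probe choices and tumors left out. The share of members with a log2 range of at least 1 (7.55%) was 2.97% on the authors' spline values, 3.69% with median scaling and 1.98% with quantile normalization, both of these without background correction, 10.1% with joint normalization of all 11 arrays, and 2.59% to 4.09% over pairs of tumors, where fewer arrays give a smaller range by construction. The median deviation of MHC class II genes in replicate 3 (-1.20) stayed between -0.82 and -1.14 under the other normalizations and second probes, and was -0.91 without replicate 1 and -0.89 without replicate 2. That of blood endothelium in replicate 3 (0.15) was -0.105 with median scaling, which leaves the dimmer replicate 3 with a median of -0.17 over all members. No paired analysis was possible because the 3 arrays belong to 1 group. The lowest signals detected were 145.1, 181.7 and 140.1 units on replicates 1, 2 and 3, and signals below these were not told from background.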

Other observations

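Probes without a single gene symbol carried signal as well. Of 10396 such probes, 1241 (11.9%) were detected on all 3 Vehicle arrays, with a median mean signal of 294.4 units, against 293.5 units for the members. They are not counted among the stroma genes. Members were more frequent among genes with several probes, at 39.7% of 9172 genes with 2 or more probes and 21.1% of 9885 genes with 1 probe. Of 3639 members with 2 or more probes, 652 (17.9%) had all of them detected, so a single undetected probe says little about a gene.

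Further muscle genes, chosen after their values were seen, were high in replicate 2 alone. Mylpf, a fast myosin light chain, gave 129.5, 319.5 and 121.6 units in replicates 1, 2 and 3, and Atp2a1, the calcium pump of fast fibers, gave 138.1, 380.7 and 123.7 units. Neither was a member.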
